A study of Mus musculus with 12 samples.

Results

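The 10 genes described here are regulators and markers of trophoblast, Cdx2, Gata2, Gata3, Tfap2c, Elf5 and Plac1, and the simple-epithelium keratins Krt7, Krt8, Krt18 and Krt19. They were taken by gene symbol from a deposited table of 24421 genes, and all 10 symbols were found. The cells were E14, a line of mouse embryonic stem (ES) cells, grown on gelatin in medium with fetal bovine serum (FBS) and leukemia inhibitory factor (LIF). They were wild type (WT) or knocked out for Mettl3 (KO), the enzyme that methylates adenosines of messenger RNA to N6-methyladenosine (m6A). FBS samples had no inhibitor (0 nM), and paused samples had 200 nM INK128, an inhibitor of the growth kinase mTOR, both over 2 weeks. The 4 groups, WT FBS, WT paused, KO FBS and KO paused, had 3 samples each. The labels say neither which part of Mettl3 was targeted nor from how many clones the KO line came, and they do not say whether samples of a group were separate cultures, so p-values measure only the spread between these samples.

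Trophectoderm is the first epithelium of the mouse embryo and gives rise to the trophoblast of the placenta. Its specification runs through Cdx2, Gata3, Tfap2c and other transcription factors, and Elf5 helps to keep trophoblast stem cells in their state. The keratins of simple epithelia form filaments from pairs of a type II keratin (Krt7, Krt8) and a type I keratin (Krt18, Krt19), and they are early structural products of trophectoderm. ES cells derive from the inner cell mass and normally hold these genes at low levels, except Tfap2c, which ES cells and germ cells also express.

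Total counts were 10615548 to 39566713 per library. The ES cell markers were present in every group, and the levels of 10 genes, in CPM (counts scaled to a common library size), summed to 2921 to 3187 CPM (KO paused), 4097 to 5058 (WT FBS), 2271 to 2648 (KO FBS) and 5175 to 5580 (WT paused). Mettl3 had a level of 33.7 ± 2.53 CPM (WT) and 27.3 ± 1.35 CPM (KO) with FBS alone, and of 36.0 ± 2.88 CPM (WT) and 29.9 ± 1.30 CPM (KO) when paused (SD, n = 3), so its message over the whole gene checks the genotype labels only weakly. In the WT libraries 4 Y-linked genes had 0 to 7 counts each, against 593 to 3124 in the KO libraries, and a difference between the cell lines cannot be told apart from the genotype. One library stood apart. In WT FBS replicate 1, 2516 of 15281 tested genes lay over 2-fold away from the average of its group's remaining libraries, and in the other libraries 71 to 666 genes did.

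The upstream sequences of 5 members are shown because their messages were higher in KO FBS than in the other groups (Krt7, Krt8, Krt18 and Gata3) or because the gene is the best-known specifier of trophectoderm (Cdx2). Each runs 5′ to 3′ on the gene's strand, from 250 bases before the RefSeq start of transcription to 20 bases after it, on GRCm38.p6. Capitals mark matches, on either strand, to any of 5 short motifs. The TATA box was searched as TATAAA. The GATA factor motif was searched as AGATAA. The AP-2 motif, bound by Tfap2c and its relatives, was searched as GCCNNNGGC. The TEAD motif was searched as GGAATG. The CCAAT box was searched by its own letters.
Krt7: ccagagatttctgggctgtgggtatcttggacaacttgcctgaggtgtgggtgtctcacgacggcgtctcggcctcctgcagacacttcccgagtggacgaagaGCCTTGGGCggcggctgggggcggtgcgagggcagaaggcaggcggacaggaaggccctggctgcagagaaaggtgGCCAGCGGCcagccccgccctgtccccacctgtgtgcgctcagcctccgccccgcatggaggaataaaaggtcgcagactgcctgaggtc
Krt8: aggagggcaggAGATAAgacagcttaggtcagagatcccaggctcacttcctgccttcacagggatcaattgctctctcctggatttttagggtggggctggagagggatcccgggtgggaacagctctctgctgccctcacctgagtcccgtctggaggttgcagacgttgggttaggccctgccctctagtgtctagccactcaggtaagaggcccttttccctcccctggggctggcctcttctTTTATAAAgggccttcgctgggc
Krt18: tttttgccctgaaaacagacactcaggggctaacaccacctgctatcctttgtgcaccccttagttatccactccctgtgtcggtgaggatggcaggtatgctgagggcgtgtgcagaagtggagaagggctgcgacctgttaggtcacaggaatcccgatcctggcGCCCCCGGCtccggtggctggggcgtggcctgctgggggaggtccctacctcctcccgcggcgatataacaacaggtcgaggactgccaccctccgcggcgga
Gata3: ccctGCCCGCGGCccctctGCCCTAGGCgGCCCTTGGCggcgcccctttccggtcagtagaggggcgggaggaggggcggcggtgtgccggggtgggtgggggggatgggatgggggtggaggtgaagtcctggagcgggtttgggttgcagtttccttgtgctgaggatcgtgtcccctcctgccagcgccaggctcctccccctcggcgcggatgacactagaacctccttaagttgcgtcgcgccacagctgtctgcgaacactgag
Cdx2: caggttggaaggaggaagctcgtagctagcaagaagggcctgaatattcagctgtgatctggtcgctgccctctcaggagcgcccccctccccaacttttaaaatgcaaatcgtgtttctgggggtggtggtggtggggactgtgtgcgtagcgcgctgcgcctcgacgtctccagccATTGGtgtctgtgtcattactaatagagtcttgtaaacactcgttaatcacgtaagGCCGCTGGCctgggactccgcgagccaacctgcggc
These windows lie at chr15:101412153-101412422 (Krt7, plus strand), chr15:102004323-102004592 (Krt8, minus strand), chr15:102027966-102028235 (Krt18, plus strand), chr2:9878581-9878850 (Gata3, minus strand) and chr5:147307230-147307499 (Cdx2, minus strand). The AP-2 letters occurred 3 times upstream of Gata3, 2 times upstream of Krt7 and 1 time upstream of Krt18 and of Cdx2, and 14.8% of 32851 mouse promoter windows of the same length held them. The Krt8 window held none of them. It had the GATA letters, found in 10.5% of windows, 239 bases before the start, and overlapping TATA letters, found in 12.9%, at the start itself. The Cdx2 window had the CCAAT letters, found in 35.4% of windows, and none of the 5 windows shown held the TEAD letters, found in 13.5%. G and C made up 56.7% (Cdx2) to 68.9% (Gata3) of the bases shown, against a median of 52.6% for all windows. RefSeq windows were matched for 8 members (not Krt19 and Tfap2c), and a match is a string of letters and not a shown binding site.

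Krt7, Krt8 and Krt18 lie on chromosome 15 (GENCODE vM21, GRCm38), Krt7 at 101411043 to 101430313, Krt8 at 101996698 to 102004482 and Krt18 at 102028180 to 102032027. The end of Krt8 and the start of Krt18 are 23698 bases apart, and the pair are transcribed away from each other. Krt19 is on chromosome 11 (100140810 to 100148665), where many type I keratin genes lie. The transcription factors are spread over chromosomes 2 (Gata3 at 9857078 to 9890034, Elf5 at 103411688 to 103450989, Tfap2c at 172549593 to 172558622), 5 (Cdx2 at 147300805 to 147307270) and 6 (Gata2 at 88193891 to 88207032), and Plac1 is on the X chromosome (53069995 to 53240111). Exons of Krt8, Krt7 and Gata3 overlap those of genes on the opposite strand (Gm36026, Gm671 and Gm13256). Gata3 also shares exon positions with 9230102O04Rik on its own strand. The counting settings are not given, so reads of these genes and their overlapping partners may not be separated.

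Levels of different genes were set side by side per kilobase of exon. The length is that of all annotated exons of a gene, used or not. It is 7049 bases for Krt7 and 5877 for Elf5, whose longest coding transcripts have 4094 and 2532. For Krt8 it is 1958, the length of its transcript, so Krt7 and Elf5 may be ranked too low. On this measure the keratin pair led in KO FBS cells. There Krt8 was at 47.9 ± 11.6 CPM per kilobase, Krt18 at 28.5 ± 7.80, Tfap2c at 16.2 ± 1.23 and Krt19 at 7.38 ± 0.463 (SD, n = 3). Gata3 followed at 2.11 ± 0.363, Gata2 at 1.06 ± 0.374, Krt7 at 0.743 ± 0.229 and Cdx2 at 0.560 ± 0.284, and Plac1 (0.212 ± 0.0346) and Elf5 (0.0555 ± 0.0233) were lowest. The ranges of Krt8 and Krt18 in KO FBS libraries did not overlap, while those of Gata2, Krt7 and Cdx2 did. In the other groups Tfap2c had the highest mean, at 10.1 ± 4.19 CPM per kilobase (WT FBS), 7.70 ± 2.66 (WT paused) and 9.59 ± 0.784 (KO paused), followed by Krt8 (4.23 ± 1.40, 2.71 ± 0.479 and 8.0 ± 0.793) and Krt18 (2.73 ± 0.636, 0.844 ± 0.530 and 3.15 ± 0.352). For the keratins and Gata3 the 3 highest of the 12 libraries were those of KO FBS, as the plot of levels by library shows, while Cdx2 libraries of KO FBS and WT FBS were mixed.

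**Figure D1:**
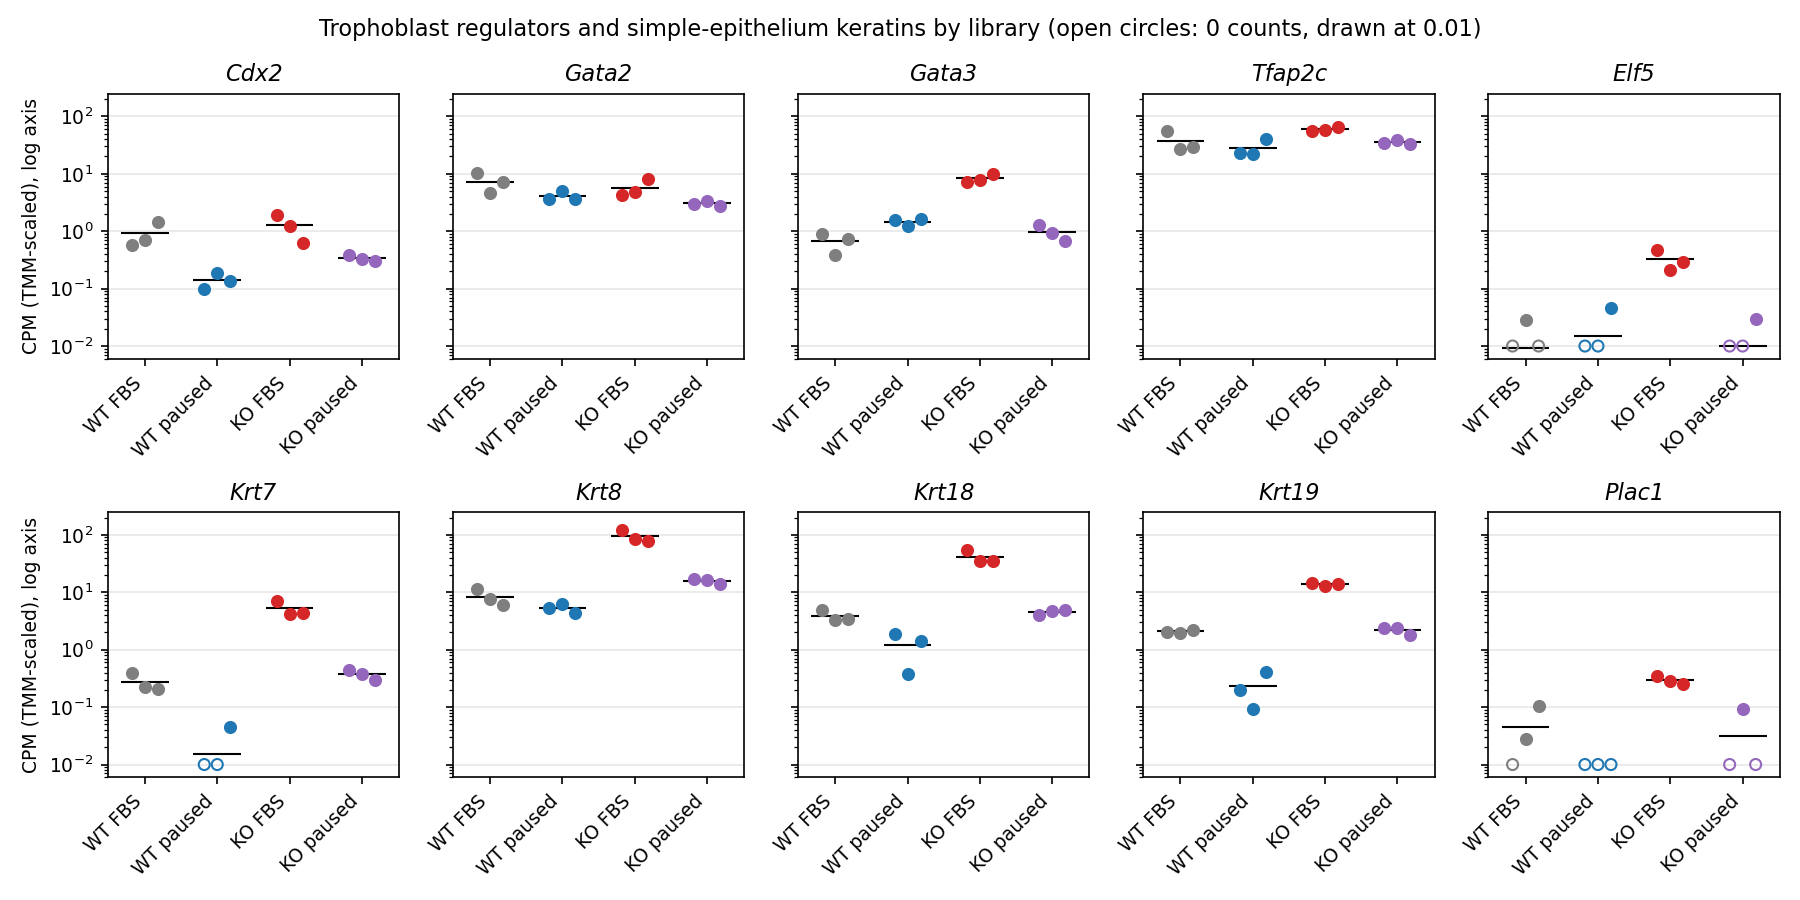
Level of each gene in each of the 12 libraries, in TMM-scaled CPM on a log axis, with the group mean as a line (n = 3) and libraries with 0 counts as open circles at 0.01. The 3 KO FBS libraries lie above all others for Krt7, Krt8, Krt18, Krt19, Gata3, Elf5 and Plac1.

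Which of these genes differ between KO and WT cells in FBS was asked first. Krt8, Krt18, Krt19 and Gata3 were higher in KO cells, by between 6.57-fold (Krt19) and 13.7-fold (Gata3), and Krt7 had a ratio of scaled counts of 21.1. Tfap2c was higher by 1.62-fold, and Cdx2 and Gata2 were not called. Calls are at a Benjamini-Hochberg adjusted p under 0.05 in edgeR's quasi-likelihood test. Of the 8 members that passed the filter on low counts, 6 were called higher, where 29.2% of the 15281 genes tested were. Krt7 passed the filter through the KO FBS libraries, where it is high, so its call is no independent result in comparisons with KO FBS and no p is given for it there. Cdx2 passed through the FBS libraries of both genotypes. Elf5 and Plac1 did not pass it, and counts of members called are a description and no support for a difference.

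Krt8, the type II keratin of the first embryonic epithelium, was at 11.3, 7.57 and 5.97 CPM in WT FBS replicates 1, 2 and 3 and at 120, 84.4 and 77.4 CPM in the KO FBS replicates. The groups did not overlap, and the fold was 11.7 (log2 3.55 ± 0.23 SE, edgeR adjusted p = 1.63e-07). In these bulk samples more cells with a message and more message per cell cannot be told apart. Krt18, its usual filament partner, was at 4.97, 3.31 and 3.48 CPM in WT FBS and at 53.9, 34.7 and 34.4 in KO FBS libraries, 10.9-fold higher (log2 3.44 ± 0.28, edgeR adjusted p = 7.05e-07). In both genes KO FBS replicate 1 was the highest of its group.

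Krt19, a type I keratin of simple epithelia and ducts, was at 2.05, 1.98 and 2.21 CPM in WT FBS libraries and at 14.3, 12.7 and 14.1 in KO FBS libraries (log2 2.72 ± 0.19, edgeR adjusted p = 2.31e-07). Relative to its mean it had the smallest spread of the keratins in both groups. Krt7, the second type II keratin of simple epithelia, had 4, 8 and 6 counts in WT FBS libraries (0.390, 0.223 and 0.211 CPM) and 163, 118 and 139 in KO FBS libraries (7.10, 4.21 and 4.41 CPM), a ratio of scaled counts of 21.1 (95% interval 13.2 to 36.0, counting error only). Together the 4 keratins summed to 11.9 to 18.7 CPM in WT FBS libraries and 130 to 195 CPM in KO FBS libraries. Krt8 counts per Krt18 count were 1.72 to 2.29 in the WT FBS libraries and 2.22 to 2.43 in the KO FBS libraries.

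Gata3, a zinc finger factor that can drive ES cells towards trophoblast when forced, was at 0.877, 0.390 and 0.737 CPM in WT FBS and at 7.28, 7.85 and 10.0 in KO FBS libraries. Its fold was 13.7 (log2 3.77 ± 0.29, edgeR adjusted p = 4.93e-07). Gata2, the related factor active in trophoblast giant cells and blood progenitors, was not called. It was at 10.3, 4.54 and 7.06 CPM in WT FBS and at 4.31, 4.78 and 8.02 in KO FBS libraries (log2 -0.30 ± 0.29, edgeR adjusted p = 0.397), and these ranges overlapped.

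Tfap2c, which encodes the AP-2 gamma factor, was at 55.0, 27.4 and 29.3 CPM in WT FBS and at 56.0, 57.8 and 64.6 in KO FBS libraries (log2 0.70 ± 0.26, edgeR adjusted p = 0.0327). The highest WT value came from WT FBS replicate 1, the library that stood apart, and without it the log2 difference was 1.05 ± 0.20 (edgeR adjusted p = 0.000792). The call was lost on leaving out WT FBS replicate 2 (0.52) or 3 (0.55), or KO FBS replicate 1 (0.73), 2 (0.72) or 3 (0.63). Cdx2, the homeobox factor that commits cells to trophectoderm, was at 0.585, 0.696 and 1.47 CPM in WT FBS and at 1.92, 1.25 and 0.634 in KO FBS libraries. The groups overlapped, at a log2 difference of 0.36 ± 0.39 (edgeR adjusted p = 0.460), and the difference was -0.06 without KO FBS replicate 1.

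Elf5, an ETS factor of trophoblast stem cells, had 0, 1 and 0 counts in the WT FBS libraries and 11, 6 and 9 in the KO FBS libraries. The ratio of the scaled counts, KO FBS over WT FBS, was 23.5 with a 95% exact interval from 3.86 to 964, which covers counting error only, as do all such intervals here. Plac1, a placenta-expressed gene of the X chromosome, had 0, 1 and 3 counts in WT FBS libraries and 8 in each KO FBS library (ratio 5.43, 95% interval 1.87 to 21.5). No library outside KO FBS had more than 3 counts of Plac1 or more than 1 of Elf5. The mature placental genes Tpbpa, Prl3d1, Prl2c2, Prl3b1, Synb and Ctsq, 6 of the 30 other trophoblast genes looked up, had 0 counts in all 12 libraries, where 3 counts over a group stand for 0.0364 CPM in KO FBS and 0.0697 in WT paused cells.

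**Figure D2:**
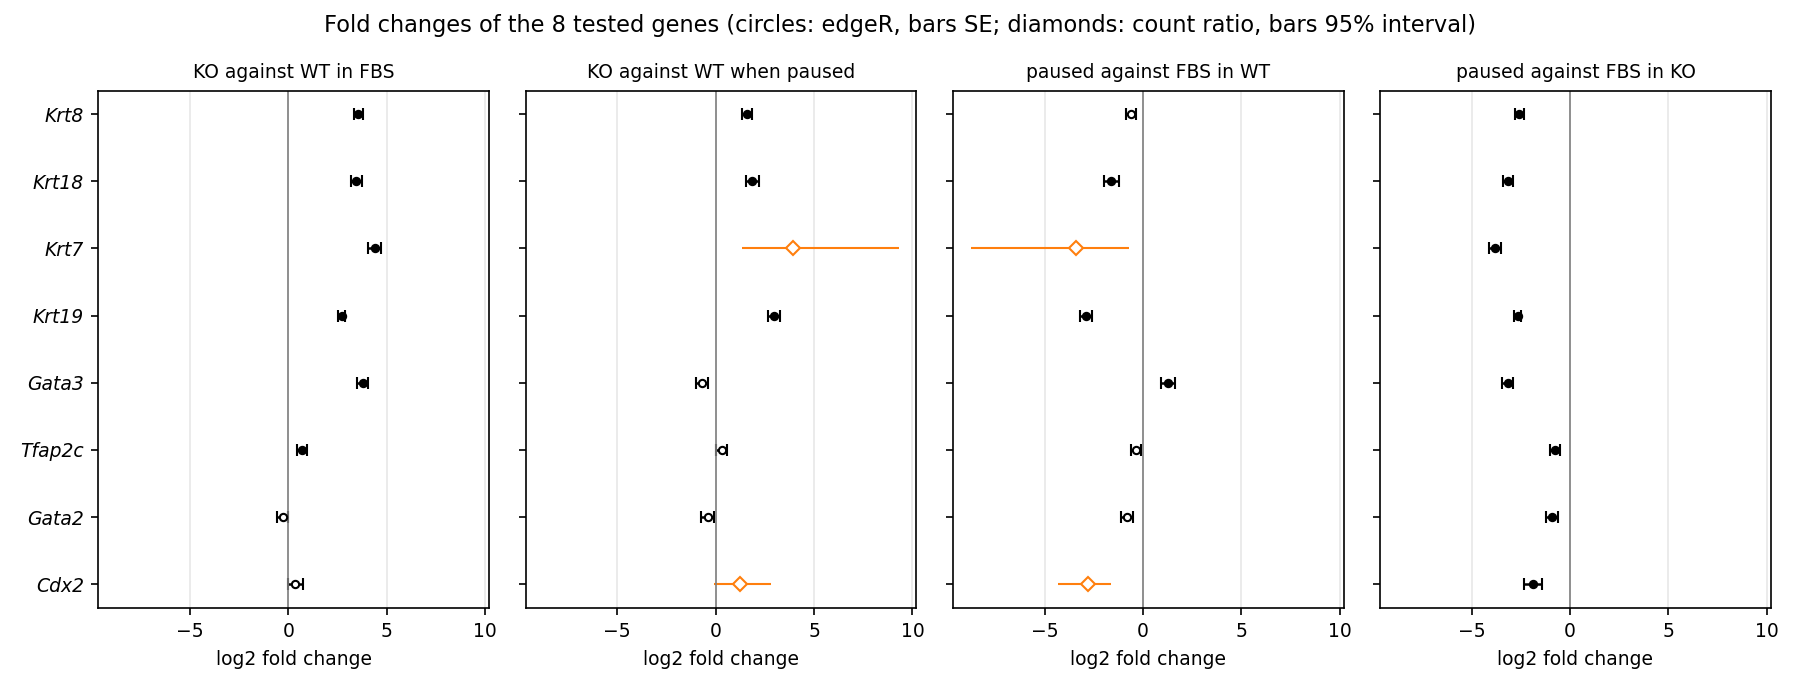
Log2 fold change of each tested gene in 4 comparisons relative to the typical gene, with edgeR estimates and SE as circles (filled where the adjusted p is under 0.05). Diamonds stand where a group had 10 or fewer counts and give the ratio of scaled counts with its 95% interval. The keratins and Gata3 lie far above 0 in FBS and below 0 on pausing in KO cells.

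In paused against FBS KO cells the 8 tested members were called lower relative to the typical gene, where 20.6% of genes tested were called lower. This comparison uses the same KO FBS libraries as the genotype comparison in FBS, so the direction of one bears on the other. Krt8 was at 16.9, 16.1 and 13.9 CPM in the KO paused libraries, 6.0-fold lower than in KO FBS (log2 -2.58 ± 0.22, edgeR adjusted p = 2.87e-06). Krt18 was at 3.96, 4.73 and 4.91 CPM, 8.99-fold lower (log2 -3.17 ± 0.27, edgeR adjusted p = 2.90e-06). Neither gene's KO FBS and KO paused libraries overlapped.

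Krt19 was at 2.35, 2.36 and 1.81 CPM in KO paused libraries (log2 -2.67 ± 0.18, edgeR adjusted p = 6.61e-07). Krt7 had 9, 8 and 10 counts there, or 0.440, 0.371 and 0.301 CPM, and the ratio of scaled counts, KO FBS over KO paused, was 14.2 (95% interval 9.61 to 21.8). For Krt18, Krt19 and Krt7 the KO paused libraries overlapped the WT FBS libraries, while for Krt8 they lay above the highest WT FBS library. Krt8 counts per Krt18 count were 4.27, 3.41 and 2.83 in the KO paused libraries, all above the highest KO FBS value of 2.43. In the WT paused libraries they were 2.84, 16.8 and 3.13, also above the highest WT FBS value of 2.29. The 16.8 of WT paused replicate 2 rests on 4 counts of Krt18.

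Gata3 stood at 1.27, 0.927 and 0.663 CPM in KO paused libraries, 9.01-fold lower than in KO FBS (log2 -3.17 ± 0.27, edgeR adjusted p = 2.90e-06). The smaller changes were those of Cdx2, Gata2 and Tfap2c. Cdx2 was at 0.391, 0.325 and 0.301 CPM (log2 -1.87 ± 0.46, edgeR adjusted p = 0.00589), below every KO FBS library. Gata2 was at 2.98, 3.39 and 2.77 CPM (log2 -0.92 ± 0.30, edgeR adjusted p = 0.0267) and Tfap2c at 34.3, 38.5 and 33.05 CPM (log2 -0.75 ± 0.25, edgeR adjusted p = 0.0301). Gata2 lost its call when any KO paused library (-0.90, -1.0 and -0.85 for replicates 1, 2 and 3) or KO FBS replicate 3 (-0.58) was left out. Tfap2c lost its call when any KO paused library (-0.73, -0.82 and -0.71) or replicate 2 (-0.78) or 3 (-0.69) of KO FBS was left out.

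Elf5 and Plac1 were too low to test. Elf5 had 26 counts over the KO FBS libraries and 1 over the KO paused libraries, a ratio of scaled counts of 23.7 (95% interval 3.89 to 972). Plac1 had 24 and 2 counts, a ratio of 10.9 (95% interval 2.72 to 95.5).

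In WT cells the changes on pausing were smaller in number. Krt18, Krt19, Krt7 and Cdx2 were called lower, where 20.1% of genes tested were, and Gata3 was called higher, where 18.5% were. Krt18 was at 1.86, 0.374 and 1.40 CPM in WT paused libraries (log2 -1.60 ± 0.36, edgeR adjusted p = 0.00475), with WT paused replicate 2 at 4 counts. Krt19 had 2, 1 and 9 counts there, or 0.196, 0.0934 and 0.407 CPM (log2 -2.90 ± 0.31, edgeR adjusted p = 4.05e-05). The WT FBS and WT paused libraries overlapped for neither gene.

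Krt7 had 18 counts over the WT FBS libraries and 0, 0 and 1 in the WT paused libraries, a ratio of scaled counts of 10.4 (95% interval 1.64 to 432). Cdx2 had 6, 25 and 42 counts in WT FBS libraries and 1, 2 and 3 in WT paused libraries (0.0981, 0.187 and 0.136 CPM). Its ratio was 7.01 (95% interval 3.07 to 19.7). Both calls rest on these few counts. Krt8 was not called in WT cells, at 5.29, 6.26 and 4.38 CPM when paused, which overlapped WT FBS (log2 -0.61 ± 0.25, edgeR adjusted p = 0.0704). It became called on leaving out WT FBS replicate 3 (-0.83) or KO FBS replicate 1 (-0.64).

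Gata3 moved the other way from the keratins in WT cells. It had 16, 13 and 36 counts in WT paused libraries, or 1.57, 1.21 and 1.63 CPM, above every WT FBS library (log2 1.28 ± 0.34, edgeR adjusted p = 0.0113). This call depended on 2 libraries, since it was lost at 0.91 when WT FBS replicate 2, and at 1.14 when WT paused replicate 3, was left out. Tfap2c (22.8, 22.5 and 39.6 CPM when paused, log2 -0.35 ± 0.26, edgeR adjusted p = 0.303) and Gata2 (3.63, 5.04 and 3.57 CPM, log2 -0.81 ± 0.31, edgeR adjusted p = 0.0596) were not called. Gata2 became called without WT FBS replicate 2 (-1.09) or KO FBS replicate 3 (-0.81), and Tfap2c was at 0.02 without WT FBS replicate 1. Elf5 had 1 count in each WT group, and Plac1 had 4 counts in WT FBS and 0 in WT paused libraries.

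The difference between the pausing effects was tested directly, by subtracting the WT effect from the KO effect. It was below 0 and called for Gata3, Krt8 and Krt18, 3 of 8 members, where 8.88% of genes tested were called in that direction. For Gata3 it was -4.45 ± 0.43 on the log2 scale (edgeR adjusted p = 4.70e-05), the product of a rise in WT and a fall in KO cells. For Krt8 it was -1.97 ± 0.33 (edgeR adjusted p = 0.00185), and both calls held in each of the 12 fits that left out 1 library. For Krt18 it was -1.57 ± 0.46 (edgeR adjusted p = 0.0358). That call was lost in 8 of the 12 such fits, those without any KO paused library (-1.48, -1.59 and -1.63), WT paused replicate 1 (-1.29) or 3 (-1.38), KO FBS replicate 1 (-1.31), or replicate 2 (-1.46) or 3 (-1.50) of WT FBS. Krt19 (0.24 ± 0.37, edgeR adjusted p = 0.789), Tfap2c (-0.40 ± 0.36, edgeR adjusted p = 0.490), Gata2 (-0.11 ± 0.43, edgeR adjusted p = 0.889) and Cdx2 (0.87 ± 0.87, edgeR adjusted p = 0.536) were not called. A p above the threshold does not show that they respond alike, and Tfap2c was called at -0.79 (edgeR adjusted p = 0.0403) without WT FBS replicate 1.

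**Figure D3:**
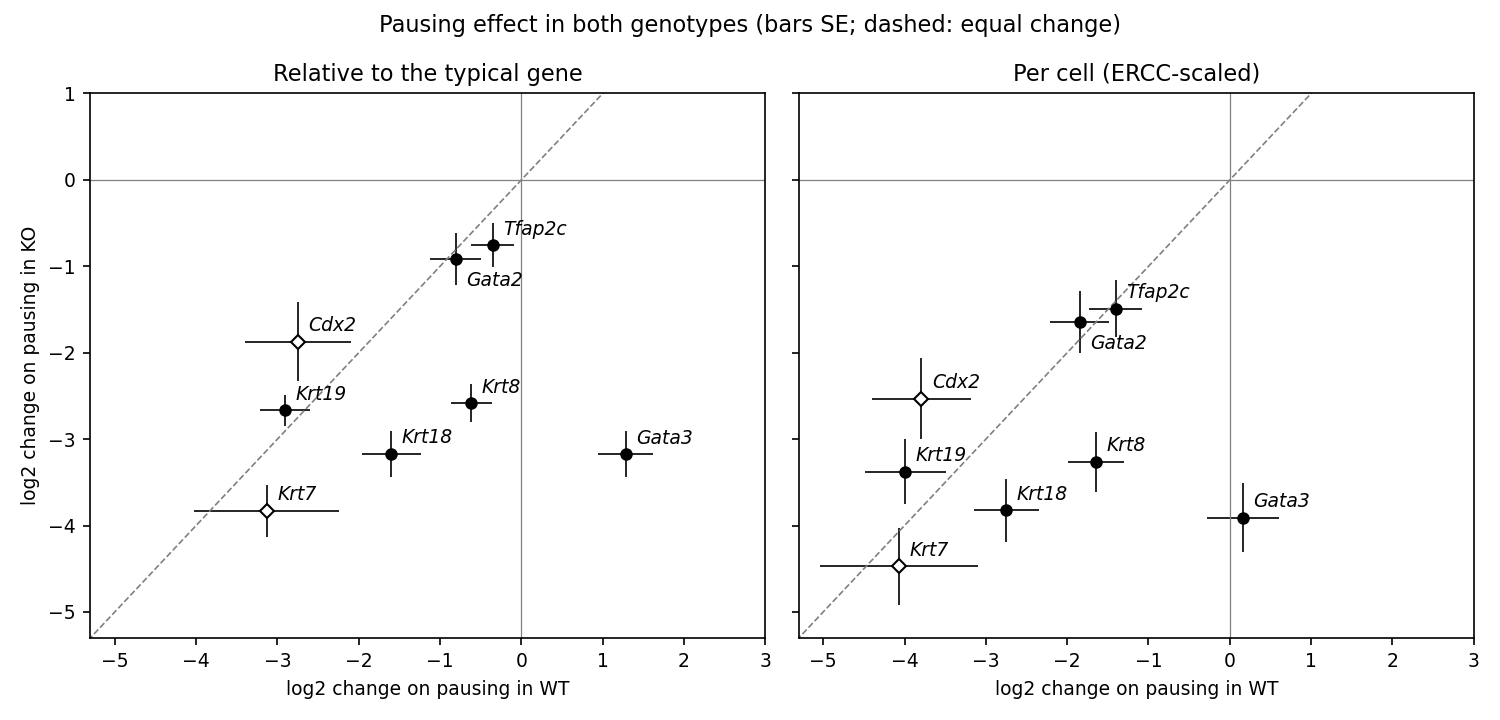
Log2 change on pausing in KO cells (vertical) against that in WT cells (horizontal), relative to the typical gene on the left and per cell on the right, with SE bars and a dashed line of equal change. Open diamonds mark Krt7 and Cdx2, whose WT paused counts are so low that the fitted WT value depends on the prior count. Gata3, Krt8 and Krt18 lie below the dashed line on both scales.

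Between paused cells of both genotypes the keratins still differed. Krt8, Krt18, Krt19 and Krt7 were called higher in KO paused than in WT paused cells, where 27.7% of genes tested were. The log2 differences were 1.58 ± 0.24 for Krt8 (edgeR adjusted p = 0.000155), 1.87 ± 0.35 for Krt18 (edgeR adjusted p = 0.000735) and 2.95 ± 0.31 for Krt19 (edgeR adjusted p = 7.01e-06). For Krt7 the ratio of scaled counts was 15.4 (95% interval 2.55 to 633, from 27 counts against 1). The 4 keratins summed to 20.9 to 23.7 CPM in KO paused and 6.23 to 7.35 CPM in WT paused libraries, which did not overlap.

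The trophoblast factors were not called between paused KO and WT cells. Gata3 was at a log2 difference of -0.68 ± 0.32 (edgeR adjusted p = 0.0888), with 1 KO paused library above the lowest WT paused library. It was called lower in KO without WT FBS replicate 1 (-0.72, edgeR adjusted p = 0.0449) or KO paused replicate 1 (-0.93). Tfap2c was at 0.30 ± 0.26 (edgeR adjusted p = 0.355) and Gata2 at -0.41 ± 0.32 (edgeR adjusted p = 0.308). Cdx2 had 25 counts in KO paused and 6 in WT paused libraries, a ratio of 2.38 (95% interval 0.955 to 7.11).

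The values so far are relative to the typical gene. A second scale used the synthetic ERCC RNAs added to RNA from equal numbers of cells, as an estimate of message per cell. On it the median of all tested genes was at -1.05 on pausing in WT cells and at -0.72 in KO cells (log2), against -0.01 and 0.01 on the relative scale. Gene counts per ERCC count were 47.4, 93.5 and 64.6 in KO FBS replicates 1, 2 and 3. In WT FBS replicates 1, 2 and 3 they were 72.4, 73.3 and 74.6. Per-cell values that use KO FBS, the KO median among them, thus rest on libraries that differ widely on this scale. Per cell, 7 members were called lower in paused WT cells, where 68.8% of genes tested were, and the 8 tested members were called lower in paused KO cells, where 45.7% were. The WT count is thus read against a background in which most genes were called. Krt8 in WT cells was at -1.65 ± 0.35 (edgeR adjusted p = 1.85e-05) and Tfap2c at -1.40 ± 0.33 (edgeR adjusted p = 9.36e-05), both not far from the median gene.

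Gata3 per cell was at 0.16 ± 0.44 in paused WT cells (edgeR adjusted p = 0.749), so its relative rise in WT was not called per cell, while it was -3.91 ± 0.40 in KO cells (edgeR adjusted p = 8.96e-20). Between genotypes in FBS the same 6 members were called higher, where 19.1% of genes tested were, with Krt8 at 3.57 ± 0.36 and Gata3 at 3.81 ± 0.42. Of these, Tfap2c (0.79 ± 0.32, edgeR adjusted p = 0.0476) lost its call in 9 of the 12 fits that left out 1 library, all but those without replicate 1 of WT FBS, KO FBS or WT paused, at 0.55 (without KO FBS replicate 2) to 0.81 (without WT paused replicate 2). Between paused cells the same 4 keratins were called higher, where 27.1% were, while Tfap2c (0.70 ± 0.32, edgeR adjusted p = 0.0777) and Cdx2 (adjusted p = 0.0616) were not. The difference of both pausing effects per cell was called for Gata3 (-4.07 ± 0.59, edgeR adjusted p = 7.03e-09) and Krt8 (-1.62 ± 0.47, edgeR adjusted p = 0.0199), where 1.66% of genes tested were called in that direction. Krt8 lost this call when any KO paused library (-1.59, -1.71 and -1.55), replicate 2 (-1.56) or 3 (-1.49) of WT FBS or replicate 2 of WT paused cells (-1.33) was left out. Krt18 was not called per cell (-1.07 ± 0.52, edgeR adjusted p = 0.286).

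Other genes of the placental lineage were counted in a list of 30, of which 21 were tested. In KO against WT cells in FBS, 14 were called higher, 2 lower and 5 were not called, where 29.2% of genes tested were called higher and 28.8% lower. The median log2 difference was 1.73 against -0.03 for all genes tested. Some of the 21, such as Hand1 and Cited1, passed the filter on low counts only through the KO FBS libraries, so these counts are a description. Plet1, a surface protein of trophoblast progenitors, went from 3.75 ± 0.553 CPM in WT FBS to 12.2 ± 0.297 in KO FBS cells (log2 1.73 ± 0.15, edgeR adjusted p = 1.61e-06). Esx1, a homeobox gene of the placental labyrinth, went from 0.221 ± 0.0626 to 3.12 ± 0.466 CPM (log2 3.90 ± 0.27, edgeR adjusted p = 2.38e-07). Rhox6, an X-linked homeobox gene of placenta and germ cells, was at 1.21 ± 0.318 and 6.77 ± 0.671 CPM (log2 2.41 ± 0.23, edgeR adjusted p = 3.18e-06).

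In paused KO cells 17 of these 21 genes were called lower and the other 4 were not called, where 20.6% of all genes tested were called lower and 22.3% higher, and their median was -1.27 against 0.01 for all genes. In paused WT cells 9 were called lower and 1 higher, where 20.1% and 18.5% of all genes were. Without WT FBS replicate 1 the counts were 15 higher and 3 lower between genotypes in FBS, and 17 lower and 1 higher in paused KO cells. Esx1 had a change of -2.71 ± 0.23 on pausing in KO cells and 0.87 ± 0.39 in WT cells (edgeR adjusted p = 0.162), and the difference between them was called (-3.58 ± 0.47, edgeR adjusted p = 0.000359). Plet1 fell in both genotypes, by 2.4 in WT and 2.51 in KO cells on the log2 scale, and the difference was not called (-0.11 ± 0.30, edgeR adjusted p = 0.846). Of the 21, 6 were called with a lower and 2 with a higher pausing effect in KO than in WT cells. Of genes tested 8.88% were called lower and 8.83% higher.

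Of 18 other keratins 7 were tested, and in KO against WT cells in FBS 4 were called higher and 1 lower (29.2% and 28.8% of all genes tested). On pausing in KO cells 5 were called lower (20.6% of all genes) and the other 2 were not called, with a median of -2.04. Without WT FBS replicate 1, 8 were tested, with 5 higher and 2 lower between genotypes in FBS. Krt12 and Krt14 passed the filter on low counts only through the KO FBS libraries, where they are high. Their calls in comparisons with KO FBS are no independent result, and the counts of keratins called are a description. Krt42, a type I keratin of the chromosome 11 cluster that holds Krt19, rose from 6.85 ± 3.54 CPM in WT FBS to 30.6 ± 1.83 in KO FBS cells (log2 2.08 ± 0.27, edgeR adjusted p = 3.45e-05) and had 10.1 ± 1.16 CPM (WT) and 1.95 ± 0.170 CPM (KO) when paused. Its pausing effects differed by -4.43 ± 0.41, KO less WT, (edgeR adjusted p = 3.48e-05). Krt17, a stress-induced type I keratin, was not called between genotypes in FBS (8.42 ± 2.37 CPM in WT and 8.59 ± 0.489 in KO, edgeR adjusted p = 0.994) but fell by 3.09 in paused KO cells on the log2 scale. Krt5, the keratin of the basal epidermis, had 0 counts in both paused groups, and the epidermal keratin Krt14 had 44 counts over the KO FBS, 10 over the WT FBS, 1 over the KO paused and 0 over the WT paused libraries.

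Of 29 tested genes of epithelial junctions and adhesion, 20 were called higher and 2 lower in KO against WT cells in FBS (median 0.65), where 29.2% and 28.8% of all genes were. In paused KO cells 16 were called lower and 4 higher (median -0.40), where 20.6% and 22.3% of all genes were. Dsp, which encodes the desmoplakin that ties keratin filaments to desmosomes, went from 10.4 ± 4.23 CPM in WT FBS to 71.5 ± 23.8 in KO FBS cells (log2 2.84 ± 0.30, edgeR adjusted p = 6.02e-06). When paused it had 2.58 ± 0.709 CPM (WT) and 5.94 ± 1.21 CPM (KO), and its pausing effects differed (-1.70 ± 0.47, edgeR adjusted p = 0.0269). The tight junction protein gene Cgn rose less in KO FBS cells (log2 0.78 ± 0.08, edgeR adjusted p = 5.67e-06), and the desmosomal gene Pkp2 was not called there (-0.20 ± 0.11, edgeR adjusted p = 0.125). Pkp2 fell on pausing by 1.43 in WT and 1.31 in KO cells on the log2 scale.

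The other intermediate filament genes were called in both directions. In KO against WT cells in FBS 4 of 11 were called higher and 5 lower (median -0.72), where 29.2% and 28.8% of all genes were, and Vim, the filament protein of mesenchyme, fell by 0.90 on the log2 scale (edgeR adjusted p = 0.00162). Lmna, the nuclear lamin, went from 63.9 ± 6.81 CPM in WT FBS to 13.9 ± 0.767 in KO FBS cells (log2 -2.21 ± 0.14, edgeR adjusted p = 1.31e-07). Nefl was called higher in KO FBS cells (log2 1.32 ± 0.12, edgeR adjusted p = 2.71e-06). Between paused cells Vim was called higher in KO (log2 1.00 ± 0.20, edgeR adjusted p = 0.00101), the opposite of its direction in FBS. Of 20 genes that induce or repress the trophectoderm program, 9 were called higher and 5 lower in KO FBS cells (median 0.11). Of all genes 29.2% and 28.8% were, and the 5 lower are near the background share. The list mixes inducers with repressors, so its counts have no single direction. Among them Amot, an angiomotin of the Hippo pathway that sets Cdx2 in the embryo, went from 15.1 ± 2.41 to 55.7 ± 5.67 CPM, and Elf3, an epithelial ETS factor, from 18.8 ± 8.06 to 59.2 ± 8.14 CPM. Both fell on pausing in either genotype, Amot by 3.84 in WT and 3.08 in KO cells and Elf3 by 0.94 in WT and 2.5 in KO cells on the log2 scale. Gata6 and Prdm14, of the same list, were called lower in KO FBS than in WT FBS cells. Their log2 differences were -2.99 ± 0.28 for Gata6 (edgeR adjusted p = 2.50e-06) and -0.59 ± 0.14 for Prdm14 (edgeR adjusted p = 0.00385).

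**Figure D4:**
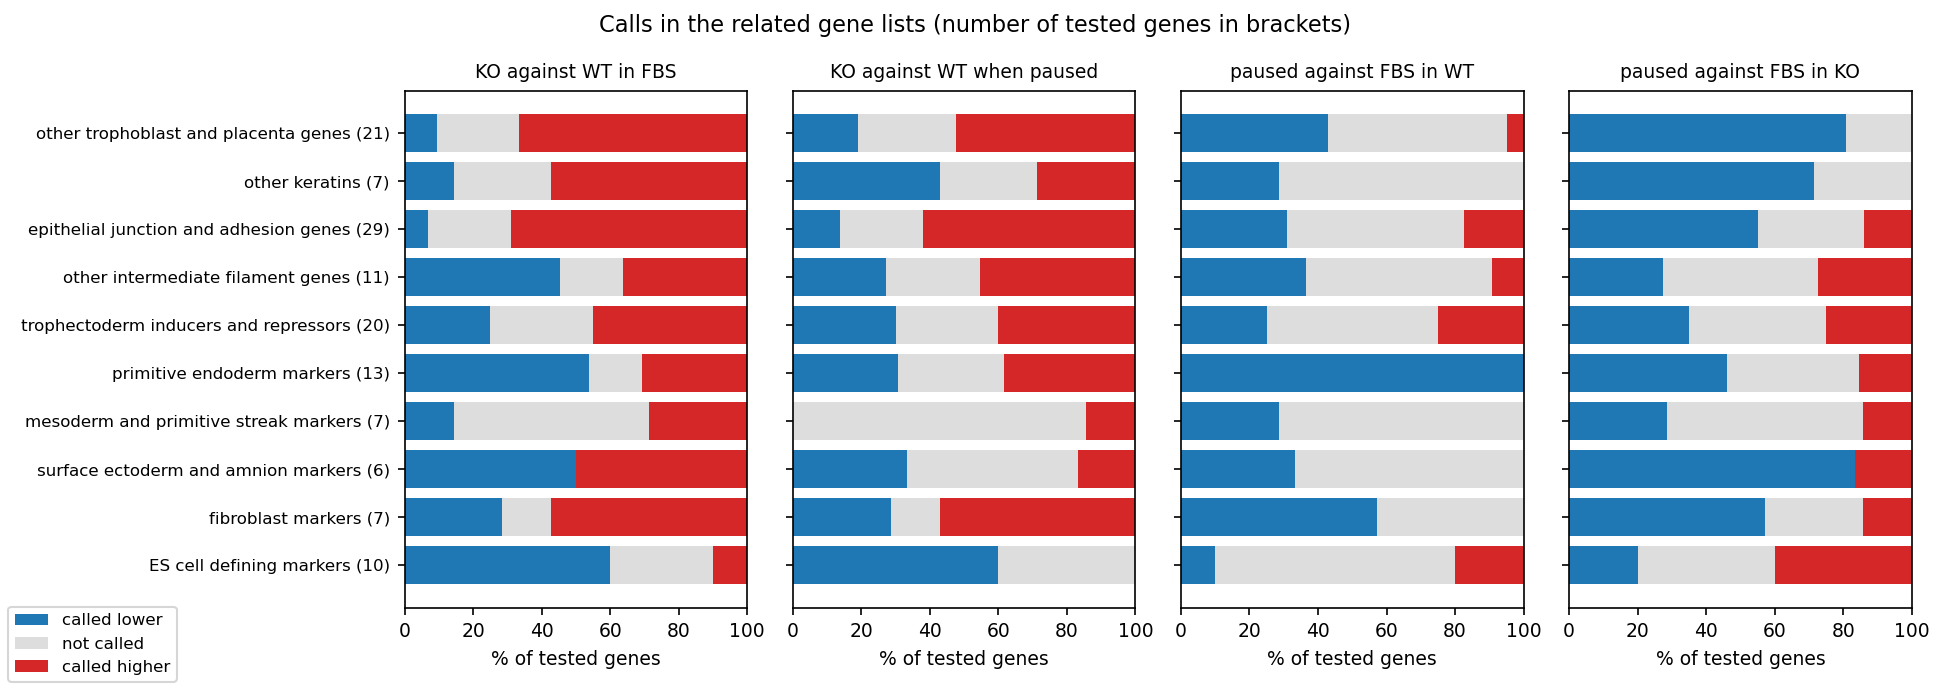
Share of the tested genes of each related list, members left out, that edgeR called lower (blue), did not call (grey) or called higher (red) in 4 comparisons, with the number tested in brackets. In paused KO cells 17 of 21 other trophoblast genes and 5 of 7 other keratins were called lower. Some genes are in more than 1 list, and some, such as Krt12 and Hand1, passed the count filter only through KO FBS libraries.

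Markers of other cell types that also use these genes were counted beside them. The lists share genes, among them Hand1 and Eomes (trophoblast and mesoderm), Dlx3 (trophoblast and surface ectoderm) and Krt14 (keratins and surface ectoderm). Their counts are thus not separate results. Primitive endoderm is the other early epithelium of the embryo. Of its 13 tested markers 13 were called lower in paused WT cells, where 20.1% of all genes tested were. In KO against WT cells in FBS 4 were called higher and 7 lower, where 29.2% and 28.8% of all genes were. The summed level of the list was 378 to 386 CPM (KO paused), 258 to 406 (WT FBS), 288 to 310 (KO FBS) and 134 to 172 (WT paused). Gata6, their defining factor, was lower in KO FBS than in WT FBS cells (log2 -2.99 ± 0.28, edgeR adjusted p = 2.50e-06). Col4a1, of the same list, was called higher there (log2 0.83 ± 0.15, edgeR adjusted p = 0.000502). Mesoderm and primitive streak markers, of which 2 of 7 were called higher and 1 lower in KO FBS cells, summed to 5.85 to 13.8 CPM in WT FBS and 24.0 to 30.1 in KO FBS libraries, and to 4.51 to 4.86 in WT paused and 19.3 to 22.5 in KO paused libraries. Of 6 tested surface ectoderm and amnion markers 3 were called higher and 3 lower in KO FBS cells, where 29.2% and 28.8% of all genes were. Those called higher were Dlx3, Krt14 and Isl1. Krt14 and Isl1 passed the count filter only through the KO FBS libraries, so the count of higher calls is a description. Isl1 was at 0.0561 ± 0.0744 CPM in WT FBS and 0.581 ± 0.131 in KO FBS cells. The list summed to 23.9 to 35.6 CPM in WT FBS and 21.9 to 26.4 in KO FBS libraries. When paused it summed to 30.4 to 36.9 CPM in WT and 34.7 to 38.5 in KO libraries. In the mesoderm list 2 of 7 is near the background share of 29.2%, and its median was -0.05. Kdr went from 1.34 ± 0.547 CPM in WT FBS to 16.5 ± 3.61 CPM in KO FBS cells, most of the summed level there. The other gene called higher was Hand1, at 0.117 ± 0.107 CPM in WT FBS and 1.60 ± 0.288 in KO FBS cells. Hand1 passed the count filter only through the KO FBS libraries. Trp63, the defining factor of stratified epithelium, had 0 counts in the WT FBS and WT paused libraries, 17 over the KO FBS and 29 over the KO paused libraries. Of the primitive endoderm list Ttr had 0 counts in every group.

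Of 7 tested fibroblast markers 4 were called higher and 2 lower in KO FBS cells, where 29.2% and 28.8% of all genes were. The list summed to 1323 to 1404 CPM (KO paused), 1310 to 3055 (WT FBS), 899 to 994 (KO FBS) and 2577 to 2732 (WT paused). Most of that sum was Fn1, which was lower in KO FBS than in WT FBS cells (log2 -1.07 ± 0.24, edgeR adjusted p = 0.00207), while Col1a1, Col3a1 and Thy1 were called higher. Of 10 ES cell markers 6 were called lower and 1 higher in KO against WT cells in FBS (median -0.65). There 28.8% of genes tested were called lower and 29.2% higher. When paused 6 of the markers were called lower and the other 4 were not called, where 24.7% of genes tested were called lower. The ES marker Klf4 was at -1.51 ± 0.19 in FBS (edgeR adjusted p = 2.87e-05), while Nanog was not called (0.09 ± 0.12, edgeR adjusted p = 0.540). The part of any of these cell types in the keratin and Gata3 levels was not tested.

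The genes whose pattern over the 12 libraries was nearest to that of Krt8 were Rasgrp1, H19, Cd55 and Fam46b. Likeness is the root mean square difference of centred log2 CPM over the 12 libraries, ranked among 10347 genes with a mean of at least 5 CPM. It was 0.39 for Rasgrp1, 0.54 for H19, 0.59 for Cd55 and 0.60 for Fam46b. Among the members Krt7 (0.65) and Krt18 (0.74) were nearest to Krt8. H19, an imprinted non-coding RNA that is abundant in placenta, had 16.0 ± 3.66 CPM (KO paused), 7.87 ± 1.22 (WT FBS), 86.3 ± 17.7 (KO FBS) and 2.63 ± 0.803 (WT paused). Among the genes nearest to Gata3 were Glis3 (0.48), AI662270 (0.70) and Wfdc2 (0.70), and among members Krt8 (0.91) was nearest.

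The genes around the members on their chromosomes were summarised for comparison, with no test. The 40 nearest tested genes around Krt7, Krt8 and Krt18, which share 1 such set, had a median log2 difference of -0.27 between KO and WT in FBS and -0.06 on pausing in KO cells. Around Gata3 the medians were 0.02 and -0.20. Around Krt19, among other type I keratins, they were 0.58 and -0.59.

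Because Mettl3 writes m6A, the letters GGACT, a core form of its preferred site, were counted in the longest coding transcript of each member. Cdx2 had 3.54 per kilobase, Krt18 2.78, Krt8 2.04 and Krt19 1.90, all above the upper quartile of 1.52 for 13813 tested genes. Tfap2c (1.005), Gata3 (0.933), Plac1 (0.833), Elf5 (0.790), Krt7 (0.733) and Gata2 (0.280) were below the median of 1.055. No test of density against fold was made. These are letter counts, and no m6A was measured in these files.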

How the data were processed

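Polyadenylated RNA of 12 samples was measured. The authors deposited a table of raw counts, 1 row for each gene symbol and 92 rows for ERCC RNAs, and a table of log2 values. Per the submitters' processing notes the tools were featureCounts, Subread 1.5.0, Trim Galore 0.4.0 and edgeR 3.32.1, and the build was mm10. The library kit was directional, per the labels' protocols, while the strand option used in counting, the aligner and the annotation were not given in the sources used here. The deposited log2 values equal the log2 of the count plus 0.5 plus a constant per sample and were not tested.

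The test of counts was that of edgeR 4.0.16 under R 4.3.3 (robust quasi-likelihood, 4 group means, 12 libraries, minimum count 10, minimum total 15, Benjamini-Hochberg adjustment over 15281 genes, threshold 0.05). Relative library sizes were gene totals times TMM factors, and per-cell sizes were ERCC totals times TMM factors over ERCC rows. The ERCC mix was added after extraction, so earlier losses are not corrected, and an error in it moves every gene of that library alike. CPM are TMM-scaled on the relative scale. The tests were checked on simulated data with the same spread for every gene and with changes only in the KO paused group. No changes were put into genes of the lowest levels. The check thus does not cover members with few counts or a library that stands apart. Genes with 10 or fewer counts in a group are given as ratios with 95% exact intervals, and a floor of 3 counts stands for 0. For Cdx2 and Krt7 some edgeR values that use the WT paused group are printed as well, and they rest on 6 and 1 counts there. Positions are from GENCODE vM21, matched for 23333 of 24421 rows, and promoters from RefSeq on GRCm38.p6.

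Members and lists were chosen with earlier results of these data known. All members are described, with up to 4 genes per related list with the lowest p on pausing. Of these the text prints some, chosen after their values were seen. So were Krt5, Trp63, Ttr, Psg17, Gcm1, Syna and the placental genes with 0 counts. DESeq2 1.42.0, other scaling, no filter, a replicate block, fits of the compared groups alone and leaving out each library were the alternatives. One gene that the likeness rule names is not reported here.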

Additional observations from a re-analysis of the deposited data

Results flagged for a closer look

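The pausing effect differed between genotypes, by the interaction term of the edgeR fit, for 3 of the members. For Gata3 the KO effect less the WT effect was -4.45 on the log2 scale (relative to the typical gene), with every WT paused library above every WT FBS library and every KO paused library below every KO FBS library. For Krt8 it was -1.97, and for Krt18 it was -1.57. Per cell the values were -4.07 for Gata3, -1.62 for Krt8 and -1.07 for Krt18, the last not called (edgeR adjusted p = 0.286).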

How the results depend on the processing

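Values below are numbers of genes called by edgeR or log2 differences. With ERCC scaling in place of gene scaling, the calls went from 5910 to 10688 for pausing in WT, from 8851 to 4416 for KO against WT in FBS, from 7999 to 5005 for KO against WT when paused and from 2706 to 718 for the difference between pausing effects. There the members called on pausing in WT were 7 lower (4 in the relative fit) and 0 higher (1), and the Gata2 interaction was 0.20. With only the compared groups in the fit, pausing in WT gave 2901 genes, with 2 members lower, since Cdx2 and Krt7 did not pass the filter, and 0 higher, since Gata3 (1.22) lost its call (edgeR adjusted p = 0.0522). There 1 member, Gata3, was lower in KO paused cells, and per cell KO against WT in FBS gave 2916 genes against 4416.

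Leaving out 1 library gave 4300 to 9243 genes for pausing in WT (9243 without WT FBS replicate 1), with 0 to 1 members higher, 0 to 1 members lower between paused genotypes, and 1821 to 6500 genes for the interaction (6500 without WT FBS replicate 1). Per cell it gave 4112 to 10459 genes for pausing in KO against 7360 in the full fit (4112 without KO paused replicate 1, 4333 without KO FBS replicate 2 and 10459 without KO FBS replicate 1), and 397 to 1718 for the interaction, with 1 to 2 members lower. Members whose sign changed when 1 library was left out were not called in the full fit. On the relative scale these were Tfap2c on pausing in WT (-0.72 to 0.0193), Cdx2 between genotypes in FBS (-0.0627 to 0.89), and the interactions of Gata2 (-0.39 to 0.22), Krt7 (-1.03 to 1.70) and Krt19 (-0.0484 to 1.16). Per cell they were Gata3 on pausing in WT (-0.15 to 0.44), Gata2 between genotypes in FBS (-0.55 to 0.0903) and when paused (-0.27 to 0.30), and the interactions of Gata2 (-0.13 to 0.51), Tfap2c (-0.42 to 0.26) and Krt7 (-0.81 to 1.41). Except where named, the cause was not tested.

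The labels do not say that replicate numbers pair the samples, and not every same-numbered pair of libraries correlated: deviations from group means correlated at -0.023 to 0.270 (median 0.124, 18 pairs), against -0.258 to 0.198 for other pairs (median -0.081, 36 pairs). With the replicate block, 3 of 80 member calls changed. Krt8 on pausing in WT became called (-0.59, edgeR adjusted p = 0.0154), as did, per cell between paused genotypes, Tfap2c (0.73, edgeR adjusted p = 0.0055) and Cdx2 (1.62, edgeR adjusted p = 0.0429). Tfap2c there was also called with only the compared groups in the fit (0.70, edgeR adjusted p = 0.0183). The Cdx2 call rests on 6 counts over the WT paused libraries. The per-cell interaction gave 1970 genes with the block, against 718 without it, and that of Tfap2c was 0.0075. DESeq2 called Krt8 (-0.65) and Gata2 (-0.85) lower on pausing in WT. Of 748 relative member values under alternatives, 698 kept direction and call, and of 588 per-cell values 548 did. Depth limits Krt7, Cdx2, Elf5 and Plac1 in paused cells most, with 0 to 27 counts per group.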
